A study of Saccharomyces cerevisiae with 30 samples.

Results

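The 44 genes described here encode nucleolar and nuclear assembly factors of the large (60S) ribosomal subunit of budding yeast, Saccharomyces cerevisiae, among them RNA helicases and GTPases. They were chosen as a list of gene identifiers by the known function of their products and by no measured value, though with earlier results of these data known. They are 44 of the 7126 features counted in the auxin and diazaborine tables and 44 of the 6777 in the diamide files. Gene names and positions are those of the R64 assembly in RefSeq, where all 44 identifiers were found. Every member passed the filter on low values in every table.

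The study sequenced rRNA-depleted total RNA of BY4741 derivatives grown to mid-log phase in YPD, in 30 samples. The first set tests acute loss of an rRNA processing nuclease by an auxin-inducible degron (AID): a strain carries the plant F-box protein osTIR1 under the GPD1 promoter and RPB3-3xFLAG, together with RAT1-3xV5-IAA7, RRP44-3xV5-IAA7, LAS1-3xV5-IAA7 or RRP17-3xV5-IAA7, and was mock-treated or given 100 µM auxin for 20 min. Rat1 and Rrp17 are 5′-exonucleases, Rrp44 is the catalytic subunit of the exosome, and Las1 is an endonuclease. WT cells of this set (YBT155) carry osTIR1 and RPB3-3xFLAG but no degron. The second set treats untagged BY4741 with 0.1% DMSO or with 15 µg/ml diazaborine (DZA), an inhibitor of the ATPase Drg1 that acts late in 60S assembly, for 15 or 45 min. Each of these conditions has 2 libraries, A and B, grown on separate days. The third set is 1 library of YSC001 (BY4741 with RPB3-3xFLAG) before and 1 after 15 min of 1.5 mM diamide, an oxidant of thiols. Per the study's methods the auxin duplicates are separate isolates of a strain, the fusion replaces the endogenous protein, and the study describes the Rrp17 fusion as partly defective already without auxin.

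Over the 27 different auxin and DZA libraries, 15014154 to 99585064 reads fell on features (median 31111173). The least covered member value rested on 466 reads (RRP14 in RAT1-AID cells) and the best covered on 89448 (NOP7 in WT cells). In the diamide libraries, where reads were worked back from RPKM, 4613829 and 5045070 reads lay on features. The mock columns A and B of RRP17-AID held the same value at each of the 7126 features, which leaves 1 mock library and no test for this strain. Depletion acts on the protein, so transcripts of the tagged genes do not check the strain labels. In every table the values are relative to the RNA of the library, and in bulk RNA fewer cells of a kind and less RNA per cell cannot be told apart.

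Assembly of the large subunit starts on the nascent transcript of RNA polymerase I in the nucleolus, where early factors fold the precursor of 25S and 5.8S rRNA and helicases and AAA ATPases remodel it. The particle then moves to the nucleoplasm, gains the 5S rRNA with its proteins in final position, loses the second internal transcribed spacer, and is inspected before export. The factors act in groups. Nop7, Erb1 and Ytm1 form one complex and act with Rlp7, Nop15 and Cic1 (the A3 cluster) on the spacers, and Nsa1, Rpf1, Mak16 and Rrp1 form a second module that the ATPase Rix7 removes. Rpf2 and Rrs1 bring in the 5S particle, and the giant ATPase Mdn1 pulls on Ytm1 and Rsa4 together with the Rix1-Ipi1-Ipi3 complex. In yeast the genes for such factors are known as the ribosome biogenesis (RiBi) regulon, which is transcribed in proportion to growth and repressed in stress. Their promoters are known for the PAC element, bound by the repressors Dot6 and Tod6, and the RRPE element, bound by Stb3.

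Promoter sequences are shown first because the members share these letters and the choice of members did not use them. In the window from 250 bases before to 50 bases after each start codon, both strands were searched for the PAC core GATGAG and the RRPE core AAAATTTT, which reads the same on both strands. The PAC core was present for 40 of 44 members (90.9%) against 20.4% of the 6001 promoters of protein-coding genes read from the same assembly. The RRPE core was present for 36 members (81.8%) against 9.03% of all promoters. Both cores occurred in 32 member promoters (72.7%) against 4.38% of all promoters. At least 1 core was found for every member, whereas 4500 of the 6001 promoters had neither. The 41 genes of the small-subunit processome, which assembles the other subunit, had a like share (92.7% PAC and 75.6% RRPE), and the 79 genes of large-subunit r-proteins had few (10.1% and 7.59%). A match describes letters and is not evidence of a bound site.

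The stretches below, on R64 and written 5′ to 3′ on the strand of the gene, run from the upstream side to the base before the annotated transcript start, with PAC and RRPE cores in capitals. They belong to the member with the highest level among those without an overlapping gene (NOP7), to the member with the largest fall in diamide (RPF1), to a promoter with PAC only (RRP1) and one with RRPE only (RIX1), to the gene of a 5S particle factor (RPF2), and to the 2 genes with the largest difference between times of DZA (MAK21 and NOC2).
NOP7 (YGR103W), chrVII:695237-695388, plus strand: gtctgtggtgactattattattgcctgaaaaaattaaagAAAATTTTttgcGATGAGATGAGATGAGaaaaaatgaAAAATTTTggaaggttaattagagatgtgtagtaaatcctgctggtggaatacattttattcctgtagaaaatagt
RPF1 (YHR088W), chrVIII:281315-281451, plus strand: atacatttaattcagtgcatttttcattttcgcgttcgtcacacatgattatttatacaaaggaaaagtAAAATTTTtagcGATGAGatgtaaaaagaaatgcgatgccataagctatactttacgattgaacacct
RRP1 (YDR087C), chrIV:618344-618486, minus strand: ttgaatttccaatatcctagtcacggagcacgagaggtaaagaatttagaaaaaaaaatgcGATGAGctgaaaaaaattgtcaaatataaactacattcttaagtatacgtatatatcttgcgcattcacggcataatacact
RIX1 (YHR197W), chrVIII:493716-493878, plus strand: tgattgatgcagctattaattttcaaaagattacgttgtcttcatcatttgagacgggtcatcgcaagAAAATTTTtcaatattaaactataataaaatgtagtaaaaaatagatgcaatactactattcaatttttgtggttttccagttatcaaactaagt
RPF2 (YKR081C), chrXI:592562-592720, minus strand: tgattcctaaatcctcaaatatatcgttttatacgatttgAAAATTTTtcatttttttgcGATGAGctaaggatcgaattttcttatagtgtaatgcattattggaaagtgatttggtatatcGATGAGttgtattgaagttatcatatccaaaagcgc
MAK21 (YDR060W), chrIV:570469-570607, plus strand: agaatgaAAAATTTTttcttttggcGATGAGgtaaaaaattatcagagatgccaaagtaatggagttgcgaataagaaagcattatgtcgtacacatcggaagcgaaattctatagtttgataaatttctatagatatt
NOC2 (YOR206W), chrXV:727332-727482, plus strand: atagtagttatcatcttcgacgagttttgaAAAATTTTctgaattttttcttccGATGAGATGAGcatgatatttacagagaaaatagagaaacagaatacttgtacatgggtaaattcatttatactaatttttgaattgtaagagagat

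In the NOP7 stretch 3 PAC cores overlap between 2 RRPE cores, and in the RPF1 and MAK21 stretches 1 RRPE core lies just upstream of 1 PAC core. That order was common. Among the 32 members with both cores, the RRPE core of the closest pair lay upstream of the PAC core in 28 (87.5%), against 65.8% of the 263 promoters with both in the whole genome. In those 28 the first bases of the closest pair were 18 bases apart at the median. RRPE lay upstream and within 30 bases in 21 of the 32 members (65.6%), against 40.7% of the 263 promoters. The first bases of the matches lay at a median of -119 (PAC) and -140 (RRPE) bases from the start codon, as the map of motif positions shows. Over all promoters the medians were close to these, at -113 and -136.5. The quartiles there were wider, at -179 and -61 for PAC and -176 and -104 for RRPE. PAC stood without RRPE in RRP1, NOP4, NOP12, NOP16, SSF1, DBP7, DBP6 and MAK5, and RRPE stood without PAC in NSA1, RIX1, IPI1 and SPB1. IPI3 counts among the 32 with both, but its only PAC core lies past the start codon, at 3, and its upstream side holds RRPE only.

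**Figure D1:**
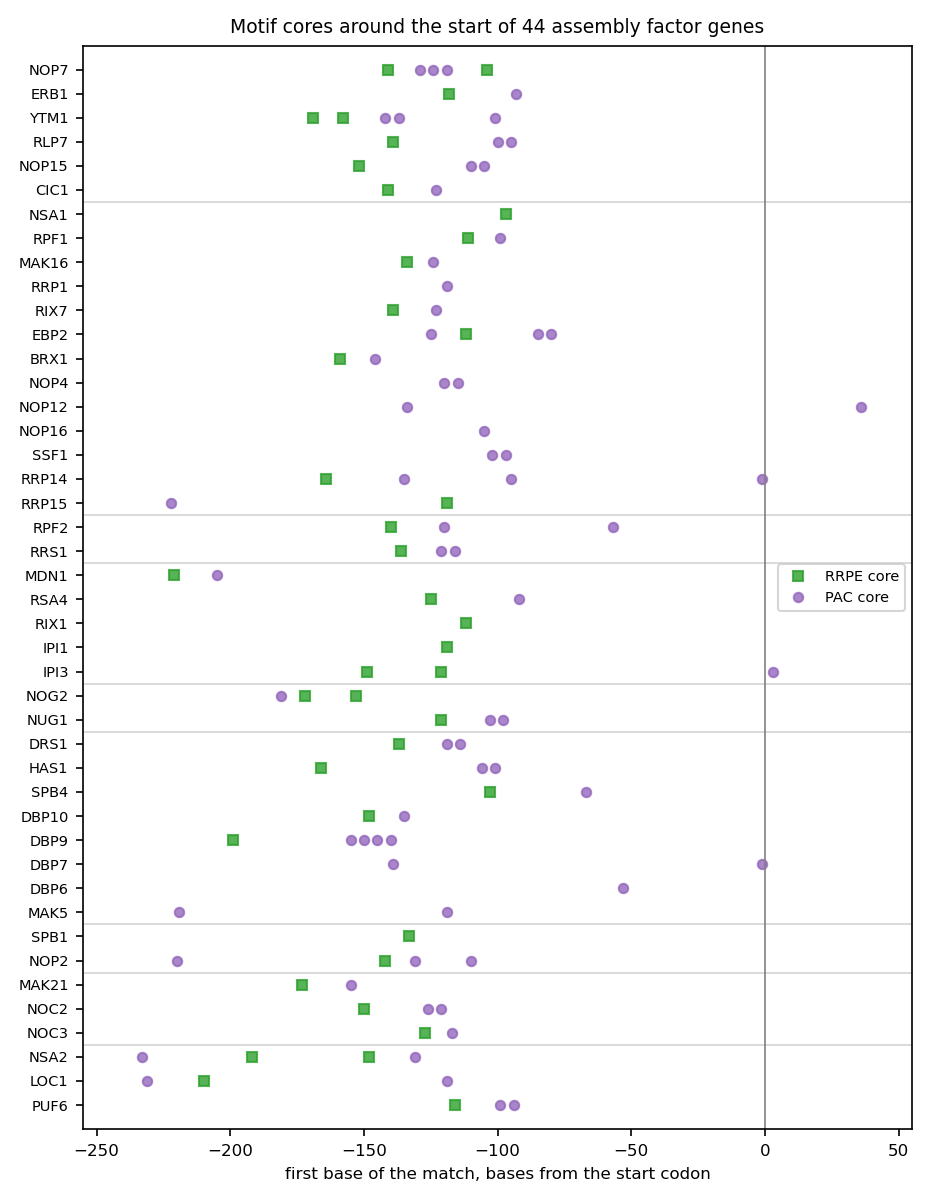
Position of each PAC core (circles) and RRPE core (squares) in the 300-base window around the start codon of the 44 assembly factor genes, in bases from the start codon, with horizontal lines between groups of factors. The quartiles of the matches are -135 and -99 for PAC and -158 and -121 for RRPE, so RRPE lies on the upstream side. The medians over all promoters have the same order.

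The members are otherwise ordinary in position. They lie on 14 chromosomes, 24 of them are divergent from the upstream gene and 20 are in tandem with it, and 51.7% of all protein-coding genes are divergent. The coding length was 612 bases for RRS1 and 14733 bases for MDN1, with a median of 1533 bases, and 43 of 44 members have a single coding exon. The exception is NOG2, whose intron holds the small nucleolar RNA gene snR191. No other member overlaps another annotated gene. SSF1 has the near-identical paralog SSF2 (YDR312W), and how the counting shared reads between them is not given in the sources used here, so values of SSF1 are uncertain.

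Oxidation by diamide lowered nearly the whole group at once. Of the 44 members, 43 fell by more than 2-fold within 15 min, with a median log2 fold change of -2.28, on log2(RPKM + 0.1), while 8.62% of the 5617 features kept fell and 7.82% rose past 2-fold and their median was -0.08. With 1 library per time there is no replicate check and no test, and the intervals below (95%, exact binomial on worked-back reads) cover counting error only. Per length, members stood between 11.8 RPKM (IPI1) and 96.8 RPKM (NOP7) before diamide if NOG2 is set aside, with a median of 37.8 RPKM. The median after diamide was 7.69 RPKM, whereas the median of all kept features was 17.8 RPKM before and 16.2 RPKM after.

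The fall reached every group of factors. RPF1, which encodes a Brix-domain protein that binds early pre-60S particles, went from 27.2 to 2.92 RPKM (203 and 26 reads), a log2 fold change of -3.18 (-3.87 to -2.63). RIX1, whose product scaffolds the Rix1 complex, went from 24.4 to 2.86 RPKM, a log2 fold change of -3.05 (-3.51 to -2.70). These are falls of 9.04-fold and 8.30-fold, the largest among the members. RRS1, of the 5S particle, went from 56.3 to 6.70 RPKM and log2 fold change -3.05 (-3.54 to -2.63). YTM1, whose product is the Mdn1 substrate of the Nop7 complex, went from 40.6 to 4.87 RPKM and log2 fold change -3.03 (-3.46 to -2.68). SSF1, a further Brix protein, went from 32.5 to 4.14 RPKM and log2 fold change -2.94 (-3.41 to -2.56). These intervals overlap, so the order among the 5 genes is not resolved at this depth.

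By group, the median log2 fold change in diamide was -2.59 over the 6 genes of the A3 cluster and the Nop7 complex, -2.21 over the 13 of the Nsa1 group and early structural factors, and -2.81 over the 2 of the 5S particle. It was -2.17 over the 5 genes of Mdn1, Rsa4 and the Rix1 complex, -2.16 over the 8 helicases, -2.18 over the 2 methyltransferases, -2.31 over the 3 Noc proteins, which escort early and intermediate particles, and -2.20 over the 3 remaining factors. All 42 genes of these groups fell past 2-fold. The smallest falls among them were those of DBP6, a DEAD-box helicase of the earliest particles, from 29.2 to 11.4 RPKM, SPB4, another helicase, from 22.1 to 8.19 RPKM, and MDN1 from 53.5 to 19.1 RPKM. MDN1, with 5749 and 2452 reads, had a log2 fold change of -1.48 (-1.55 to -1.42), so its interval does not meet that of RPF1.

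**Figure D2:**
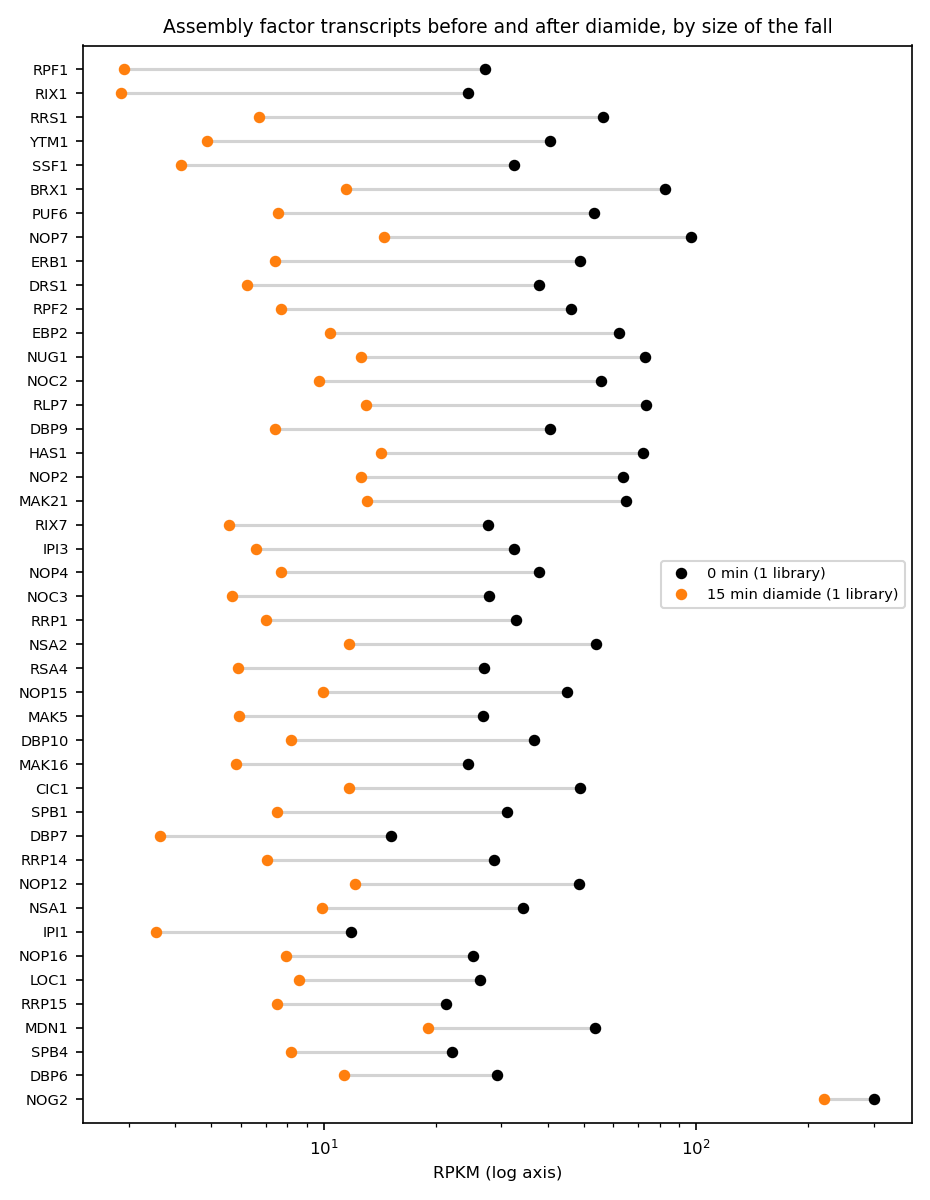
RPKM of the 44 members on a log axis, in the library before diamide (black) and the library after 15 min (orange), 1 library each, ordered by the size of the fall with RPF1 on top. All 44 orange points lie left of their black points, and the shortest line is that of NOG2 at 301 and 220 RPKM.

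NOG2 encodes a GTPase that occupies the binding site of the export adaptor Nmd3 on the nuclear particle. It stood at 301 RPKM before and 220 RPKM after diamide, a log2 fold change of -0.45 (-0.51 to -0.39), and was the member that did not pass 2-fold. Its annotated span contains snR191, for which 3862 and 4033 reads were worked back, 79.6% and 95.4% of the 4851 and 4229 reads of NOG2. If every snR191 read was also counted in NOG2, 989 and 196 reads remain for the rest of the gene, a log2 fold change of -2.59 (-2.82 to -2.37). How the deposited RPKM treated reads in the overlap is not given in the sources used here. Among its neighbours by function, NUG1, the other GTPase, went from 72.8 to 12.6 RPKM.

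Other genes of ribosome synthesis moved unequally in diamide. Of the 41 small-subunit processome genes, 40 fell past 2-fold (median log2 fold change -2.07), and so did 14 of 15 late and cytoplasmic 60S factors (-2.01), 6 of 8 genes of RNA polymerase I (-2.02) and 58 of 76 other genes of the study's list of ribosome biogenesis genes (-1.70). The r-protein genes fell less, with medians of -0.68 over the 79 large-subunit genes and -0.70 over the 56 small-subunit genes, of which 2 and 2 passed 2-fold. The 32 members with both motif cores had a median of -2.32, the 8 with PAC only -2.09 and the 4 with RRPE only -1.91, with ranges that overlap.

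After 15 min of DZA the members lay above DMSO, but none passed the test. Normalized counts (reads divided by the size factor of the library) were compared as log2(normalized count + 1) with limma, over features with a mean of at least 10, and a change was called at a Benjamini-Hochberg adjusted p under 0.05. Of the 44 members 0 were called, against 3.8% of the 6311 features tested called higher and 1.13% called lower. An unadjusted p under 0.05 was reached by 16 of the 44 members and by 1660 of the 6311 features. DESeq2 on the reads called 5 members higher, as it did 7.81% of all features. The log2 fold change was above 0 for 43 members, with a median of 0.47 where the median of all features was -0.02.

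The size of this difference rested on 1 control library. RRS1 had 2591 and 6022 normalized counts in DMSO A and B and 6373 and 5674 in DZA A and B, so only DMSO A stood apart. RSA4, the gene of the Mdn1 substrate that resembles Ytm1, had 2017 and 4025 in DMSO and 4950 and 4605 in DZA. The DMSO library A was the lowest of the 4 libraries for 39 of 44 members. Its median deviation from the mean of the table was -0.51 on the log2 scale, against 0.01 in DMSO B and 0.24 and 0.22 in DZA A and B. The pairs of libraries accordingly gave median log2 fold changes of 0.74 (A) and 0.20 (B), with an SD of 0.38 between pairs. Without DMSO A the median was 0.21, and 13 members were called higher and 1 lower, where 21.1% and 19.6% of all features were. Without DMSO B it was 0.75, and 38 were called higher, as 22.1% of all features were, in fits where the lone control is assumed to vary like the other groups.

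Some members lay higher in DZA whichever control was used. RLP7, which encodes an r-protein-like factor of the A3 cluster, had 7184 and 6907 normalized counts in DMSO and 10378 and 10524 in DZA, a log2 fold change of 0.57 ± 0.12 (SE, n = 2 libraries a group, limma adjusted p = 0.0656). CIC1, whose product sits on the second internal spacer, had 6157 and 6040 in DMSO and 9118 and 8723 in DZA, a log2 fold change of 0.55 ± 0.12 (limma adjusted p = 0.0731). For both genes the DMSO libraries lay close together and both DZA libraries lay well above them. NOP7 had 25675 and 30050 in DMSO and 46193 and 39211 in DZA, a log2 fold change of 0.62 ± 0.16 (limma adjusted p = 0.0948). Groups did not overlap for 33 members on the higher side and 1, RRP14, on the lower side, where 28.5% and 30.6% of all features were so placed. RPF1, with 2034 and 3102 in DMSO and 5160 and 4459 in DZA, had the largest log2 fold change, 0.93 ± 0.24 (limma adjusted p = 0.0939). RIX7 and MDN1, both genes of AAA ATPases, had log2 fold changes of 0.06 and 0.00, and their groups overlapped.

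Processome genes had a like median at 15 min of DZA (0.44, with 0 of 41 called), and their level in DMSO A was low as well, as the plot of list medians by library shows. The r-protein genes went the other way, with medians of -0.76 (large subunit) and -0.75 (small subunit), of which 21 of 79 and 5 of 56 were called lower. In the libraries the large-subunit r-protein genes stood at 0.49 and 0.30 in DMSO A and B and at -0.37 and -0.39 in DZA A and B relative to the table mean.

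**Figure D3:**
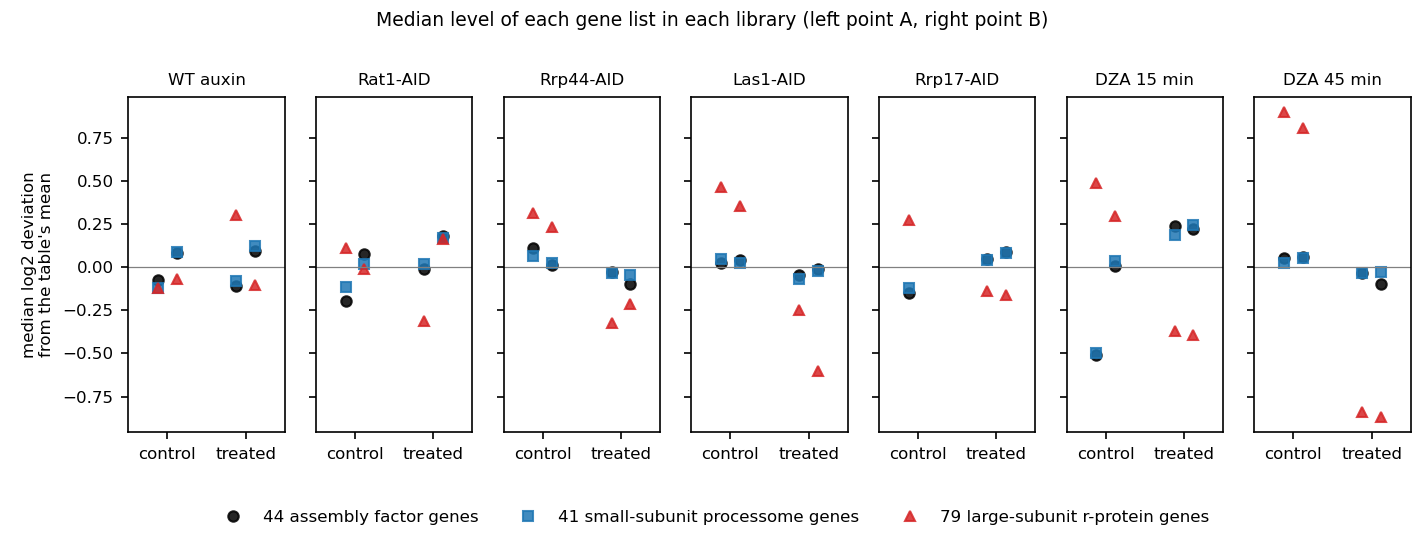
Median log2 deviation from the mean of each table in every library, for the 44 assembly factor genes (circles), 41 processome genes (squares) and 79 large-subunit r-protein genes (triangles), with control and treated libraries side by side and A left of B. At 15 min of DZA the control library A lies at -0.51 for the assembly factor genes while the other control lies at 0.01, and RRP17-AID has 1 mock library.

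By 45 min of DZA the direction for most members was down, with small sizes. Of the 44 members 11 were called lower and 1 higher, against 23.7% of the 6476 features tested called lower and 23.7% called higher, so the share of members called lower was close to that of all features. The median log2 fold change was -0.13, with -0.11 in pair A and -0.16 in pair B (SD 0.03), and 34 members were below 0. Replicates were grown on separate days, and equal letters were assumed to mark 1 day, which the labels do not state. With the letter as a block, 28 members were called lower and 8 higher, where 39.2% and 35.4% of all features were. Groups did not overlap for 26 members on the lower side and 7 on the higher side, where 38% and 37.1% of all features were so placed.

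The called falls came from several groups. NOP12, which encodes an RNA-binding factor of early particles, had 9738 and 10524 normalized counts in DMSO and 7478 and 7577 in DZA, a log2 fold change of -0.43 ± 0.06 (limma adjusted p = 0.00602). MAK21 (Noc1) had 28848 and 31027 in DMSO and 22727 and 23247 in DZA, a log2 fold change of -0.38 ± 0.06 (limma adjusted p = 0.00776). Its partner NOC2 had 21395 and 21947 in DMSO and 17627 and 17335 in DZA, a log2 fold change of -0.31 ± 0.05 (limma adjusted p = 0.00766). In these genes both DZA libraries lay below both DMSO libraries, as in 26 members and 38% of all features. The drop was several times the gap between replicates. These genes were picked by the test on the same libraries, so this adds no support to the calls. EBP2, of the early structural factors, had 13727 and 14546 in DMSO and 11226 and 10177 in DZA, a log2 fold change of -0.40 ± 0.07 (limma adjusted p = 0.0115). SPB1, a methyltransferase of 25S rRNA, fell by 0.35 and NOP2, the other rRNA methyltransferase of the list, fell by 0.30 on the log2 scale. NSA2, the gene of a factor of nuclear pre-60S particles, fell by 0.32, and CIC1, RPF2, RLP7 and NUG1 fell by 0.25, 0.24, 0.24 and 0.23. NOP12, MAK21, NOC2 and EBP2 were called with each library left out in turn, whereas NUG1 and RPF2 were called in none of the 4 fits that left out 1 library. Fewer members were called without DMSO A, DMSO B or DZA B. The median over the members was -0.12 without DMSO A, -0.13 without DMSO B, -0.14 without DZA A and -0.11 without DZA B.

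RRP15, which encodes an early nucleolar factor, was the called rise, with 3470 and 3588 normalized counts in DMSO and 4111 and 4150 in DZA and a log2 fold change of 0.23 ± 0.05 (limma adjusted p = 0.0276). It was not called with any 1 library left out. RPF1 had a log2 fold change of 0.29 with adjusted p = 0.13 by limma and 0.000411 with the block. None of the 8 helicases and none of the 5 genes of Mdn1, Rsa4 and the Rix1 complex was called, and their log2 fold changes ran from -0.16 to 0.21 and from -0.12 to 0.17. In the same libraries 78 of 79 large-subunit and 54 of 56 small-subunit r-protein genes were called lower, with medians of -1.69 and -1.65, and 9 of 41 processome genes were called lower and 3 higher (median -0.07).

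The change between the 2 times was tested as a difference of log2 fold changes in 1 limma fit over 24 libraries. All 44 differences (45 min minus 15 min) were below 0, with a median of -0.57 against -0.02 for all features. Of the 44 members 11 were called lower and 0 higher, where 4.48% of the 6299 features tested were called lower and 5.24% higher. This contrast contains DMSO A of 15 min, which stood low for the members. Without it the median was -0.33, and without DMSO B it was -0.86. Fitted on the 8 libraries of these tables alone, or with edgeR on the reads, 3 members were called, where 2.03% and 1.86% of all features were called lower. With the letter as a block 14 were, and 5.54% of all features. In data simulated with a wider spread in the tables of a contrast than in the others, the fit over 24 libraries made more false calls than its threshold allows, and the 15 min libraries spread widely here. Leaving out any 1 of the other 6 libraries of these tables left fewer members called than the full fit.

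MAK21 and NOC2, 2 of the 3 Noc genes, led this list. The other Noc gene, NOC3, had a difference of -0.53 and was not called (limma adjusted p = 0.103). MAK21 had log2 fold changes of 0.52 (15 min) and -0.38 (45 min), a difference of -0.90 ± 0.21 (SE, limma adjusted p = 0.0133). NOC2 had 0.51 and -0.31, a difference of -0.82 ± 0.17 (limma adjusted p = 0.00689). Both lay above DMSO at the first time and below it at the second in each pair of libraries. RLP7, RPF2, CIC1 and NOP7 had differences of -0.81, -0.80, -0.80 and -0.79. RLP7 and CIC1, whose DMSO libraries at 15 min were close to each other, and NOP12 were the 3 genes with an adjusted p under 0.05 in the fit on 8 libraries, at 0.0254, 0.0241 and 0.0412 by limma. DBP9, a helicase gene, RRP1, MAK5, another helicase gene, and RIX1 were called as well, with differences of -0.78, -0.77, -0.73 and -0.66. The smallest differences were those of MDN1 (-0.12) and RIX7 (-0.15).

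**Figure D4:**
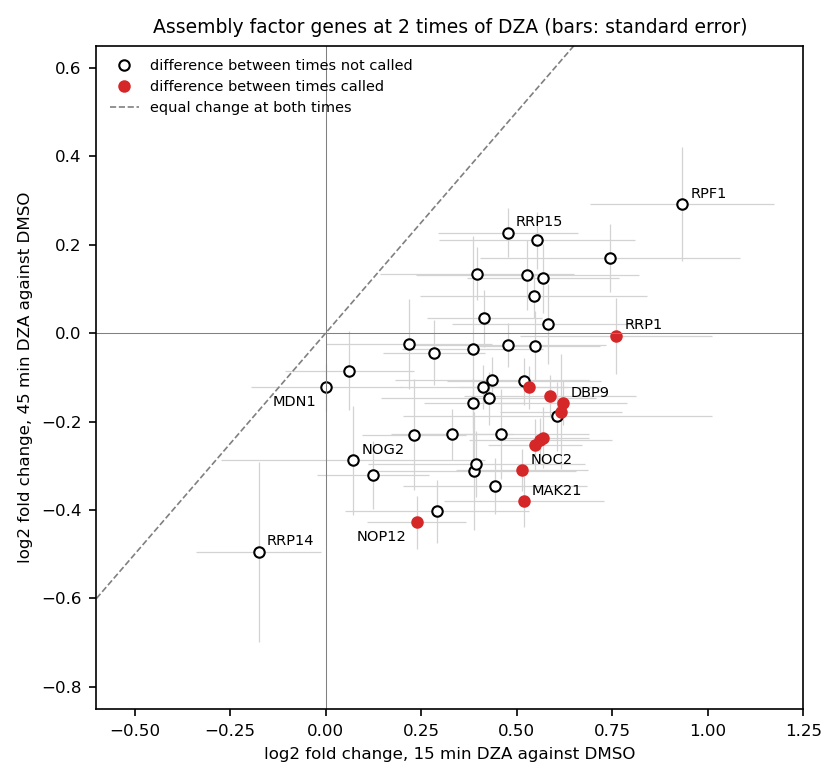
Log2 fold change (DZA against DMSO) of the 44 members at 15 min (horizontal) and 45 min (vertical), with standard errors, 2 libraries a group. Filled points mark the 11 members whose difference between times was called, and all 44 points lie under the dashed line of equal change.

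Processome genes had a median difference between times of -0.55 with 9 of 41 called lower, and the 15 late 60S factors -0.61 with 2 called, so the values of the assembly factor genes were close to those of other RiBi groups. The 4 genes of regulators of these promoters (SFP1, STB3, DOT6 and TOD6) had 0 calls in this difference and 0 calls at 15 min. Of all features 4.48% and 1.13% were called lower there. At 45 min 2 of the 4 were called lower, where 23.7% of all features were. A link between these genes and the members was not tested.

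After depletion of the processing nucleases the member medians lay between -0.13 (Rrp44) and 0.22 (Rrp17). In WT cells 0 of 44 members were called by limma after auxin, and 0% of the 6295 features tested were called higher and 0% lower. An unadjusted p under 0.05 was reached by 0 members and by 48 of the 6295 features. With so few features at a low p, 0 calls do not show that auxin alone left the members unchanged. The median log2 fold change of the members was -0.01, with -0.06 in pair A and 0.0045 in pair B. NOP7, the most abundant member by reads, had 49446 and 52813 normalized counts in mock and 54321 and 54014 in auxin-treated WT cells.

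In RAT1-AID cells 33 of 44 members lay above mock after auxin and 0 were called, where 10.7% of the 6524 features tested were called higher and 6.02% lower. Of the 44 members 8 had an unadjusted p under 0.05, as did 2098 of the 6524 features. The median log2 fold change was 0.16, with 0.23 and 0.12 in pairs A and B (SD 0.08). With the letter as a block, 7 members were called higher and 1 lower, where 14.7% and 11.3% of all features were. DESeq2 called 1 in each direction, and 12.1% of all features higher and 9.17% lower. The median was 0.05 without mock A, 0.28 without mock B, 0.25 without auxin A and 0.06 without auxin B. RRP14, an early factor gene, had 793 and 1968 normalized counts in mock A and B and 1587 and 4036 in auxin A and B, so the groups overlap while the auxin library lay above the mock library of the same letter in both pairs. Its log2 fold change was 1.02 ± 0.53 (SE, limma adjusted p = 0.24, and 0.000138 with the block). NOP16, a small early factor gene, had 1318 and 2800 in mock and 2704 and 4065 in auxin, and MAK16, of the Nsa1 module, had 1706 and 3343 in mock and 3554 and 4365 in auxin. Library A was the lower of the mock pair for all 3 genes.

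Of the other members called with the block in RAT1-AID cells, RIX7, NOP4, SPB1 and MDN1 had log2 fold changes of 0.59, 0.45, 0.55 and 0.47. MDN1 had 17444 and 18574 normalized counts in mock and 23689 and 26343 in auxin, groups that do not overlap. Groups lay apart on the higher side for 16 members and for 29.3% of all features. NOG2 was the fall called with the block. It had 13134 and 15346 in mock and 10488 and 9708 in auxin, a log2 fold change of -0.49 ± 0.14 (limma adjusted p = 0.0605, and 0.0262 with the block). In the same libraries snR191 had 14037 and 8003 normalized counts in mock and 14000 and 18150 in auxin, more than NOG2 in 3 of 4 libraries, so in these tables its reads cannot all have been counted in NOG2.

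RRP17-AID cells, with their single mock library, had 43 of 44 members above it, with a median log2 ratio of 0.22 between the mean of the auxin libraries and mock (0.20 in A and 0.24 in B). None passed 2-fold (1, RRP14, did without auxin A), as 0.918% of the 6103 features kept did upward and 0.442% downward. RRP14 had 1227 normalized counts in mock and 1463 and 2570 in auxin, NOP16 had 1883 in mock and 2534 and 3642 in auxin, and MAK16 had 2695 in mock and 3641 and 5151 in auxin. LOC1, whose product also takes part in mRNA localization, had 2260 in mock and 2944 and 4148 in auxin. These 4 had the highest log2 ratios, 0.72, 0.71, 0.71 and 0.65, followed by RPF1 with 0.52, and in the first 4 the auxin libraries differed more from each other than the lower one differed from mock. NOP12 was the member below mock, at 6912 against 6898 and 6435. Across the 44 members the log2 ratios in RRP17-AID and the log2 fold changes in RAT1-AID cells had a Pearson r of 0.80 and a Spearman rho of 0.77. These comparisons share no library, the points are genes and not replicates, and the value is a description. This Pearson r was the highest over all pairs of comparisons. The r-protein genes lay below mock, with medians of -0.41 and -0.42.

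In RRP44-AID cells most members lay slightly below mock. The median log2 fold change was -0.13, with -0.12 and -0.11 in the pairs (SD 0.0026), and 39 of 44 were below 0. Of the members 3 were called lower and 0 higher, where 10.2% of the 6343 features tested were called lower and 15.1% higher. An unadjusted p under 0.05 was reached by 13 of the 44 members and by 2526 of the 6343 features. IPI3, a subunit of the Rix1 complex, had 5038 and 4612 normalized counts in mock and 3876 and 3856 in auxin, a log2 fold change of -0.32 ± 0.08 (limma adjusted p = 0.0296). IPI1, its partner, had 1504 and 1430 in mock and 1153 and 1195 in auxin, a log2 fold change of -0.32 ± 0.09 (limma adjusted p = 0.0365). NSA2 had 5141 and 4660 in mock and 3894 and 3998 in auxin, a log2 fold change of -0.31 ± 0.08 (limma adjusted p = 0.0351). All 3 had both auxin libraries below both mock libraries, and RIX1 itself, at 4701 and 4653 against 4043 and 4070, did too without being called (adjusted p = 0.0815 by limma). Groups were so placed for 29 of the 44 members and for 34.2% of all features. The median over the members was -0.09 without mock A, -0.19 without mock B, -0.16 without auxin A and -0.08 without auxin B. Without an intensity trend in the variances 0 members were called, and with the block 5 were called lower, as 14.4% of all features were, the further genes being SSF1 and RRS1. The 8 helicase genes were divided, with 4 above and 4 below 0 and a range from -0.21 to 0.09.

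In LAS1-AID cells 4 members were called lower and 1 higher, where 17.2% of the 6103 features tested were called lower and 16.5% higher, and the median was -0.05 (-0.07 and -0.02 in the pairs, SD 0.03). NOG2 had 6673 and 6288 normalized counts in mock and 4545 and 4416 in auxin, a log2 fold change of -0.53 ± 0.08 (limma adjusted p = 0.00195), and both auxin libraries lay far below both mock libraries. Over the same libraries snR191 had 3358 and 3379 in mock and 3579 and 2049 in auxin, which did not follow NOG2 in library A. NOP12 had 3952 and 3793 in mock and 3139 and 2849 in auxin, a log2 fold change of -0.37 ± 0.09 (limma adjusted p = 0.0112). MDN1 had 10850 and 12199 in mock and 9227 and 8733 in auxin, and IPI3 had 3632 and 3451 in mock and 2833 and 2722 in auxin, with log2 fold changes of -0.36 and -0.35. For each of the 4 genes the groups do not overlap, as was so on the lower side for 20 members and for 36.9% of all features. RPF1 was the called rise, with 1936 and 2038 in mock and 2292 and 2437 in auxin and a log2 fold change of 0.25 ± 0.08 (limma adjusted p = 0.0453).

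With the block, 11 members were called lower and 4 higher after Las1 depletion, where 27.2% and 23.7% of all features were, and the higher ones were RPF1, MAK16, NOP16 and BRX1, all of the Nsa1 group and early structural factors. The median over the members was -0.07 without mock A, -0.05 without mock B, -0.03 without auxin A and -0.06 without auxin B. NOG2 was called under each of 10 settings and with each library left out, and RPF1 under 8 of 10. Beside these small changes, 78 of 79 large-subunit and 55 of 56 small-subunit r-protein genes were called lower in LAS1-AID cells, with medians of -0.82 and -0.83, and 75 of 79 and 51 of 56 in RRP44-AID cells, with medians of -0.52 and -0.55. Processome genes had medians of -0.11 and -0.07 in these strains, with 7 and 3 of 41 called lower.

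The differences between depletions were tested in the fit over 24 libraries. Against Rat1 depletion, 38 members lay lower after Las1 depletion (median difference -0.24) and 42 lay lower after Rrp44 depletion (median -0.28), but 0 were called in either. Of all features 2.64% were called lower and 2.29% higher for Las1 against Rat1, and 1.89% lower and 2.43% higher for Rrp44 against Rat1. At an unadjusted p under 0.05 there were 3 and 7 of the 44 members, and 1248 of 6102 and 1136 of 6305 features. With the block 2 and 3 members were called lower, where 2.85% and 2.33% of all features were. With edgeR 1 was called in the first of these, where 1.23% of all features were. Some fits with a single library left out also called a few members. Las1 and Rrp44 depletion differed by a median of 0.05, with 0 members called, where 0.0493% of features were called higher and 0.509% lower. An unadjusted p under 0.05 was reached by 0 members and by 391 of 6090 features. A p that misses the threshold does not show that the depletions act alike.

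Set side by side, the treatments placed single members differently from the group. RPF1 had the largest log2 fold change of the group at 15 min of DZA (0.93) and the largest fall in diamide (-3.18), and it was above control after Las1 depletion (0.25) and in RRP17-AID cells (0.52). MDN1 moved little in DZA (0.00 and -0.12) and had one of the smallest falls in diamide (-1.48), was above mock in RAT1-AID cells (0.47) and below it in LAS1-AID cells (-0.36). NOP12 was called lower at 45 min of DZA and in LAS1-AID cells and was the member below mock in RRP17-AID cells. Across the 44 members the log2 fold changes at 15 min of DZA and in diamide had a Pearson r of -0.49 and a Spearman rho of -0.47. The comparisons share no library, and the value is a description across genes. The sizes at 15 min rested on the low DMSO library A, and diamide has 1 library a time. NOG2, whose diamide value may hold snR191 reads, is included.

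Among members not yet described, ERB1, the scaffold of the Nop7 complex, went from 48.8 to 7.41 RPKM in diamide, and had log2 fold changes of 0.33 (Rat1 depletion), -0.06 (Rrp44), -0.09 (Las1) and, in DZA, 0.43 (15 min) and -0.15 (45 min). HAS1, the gene of a helicase that serves both subunits, went from 72.1 to 14.3 RPKM in diamide and had log2 fold changes of 0.23, 0.07, 0.02, 0.52 and -0.11 in the same order. PUF6, whose product binds RNA and also acts on ASH1 mRNA, went from 53.3 to 7.54 RPKM. ERB1 and HAS1 were called in no single table without the block, and with it both were called lower at 45 min of DZA. PUF6 was called in no single table with or without the block.

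**Figure D5:**
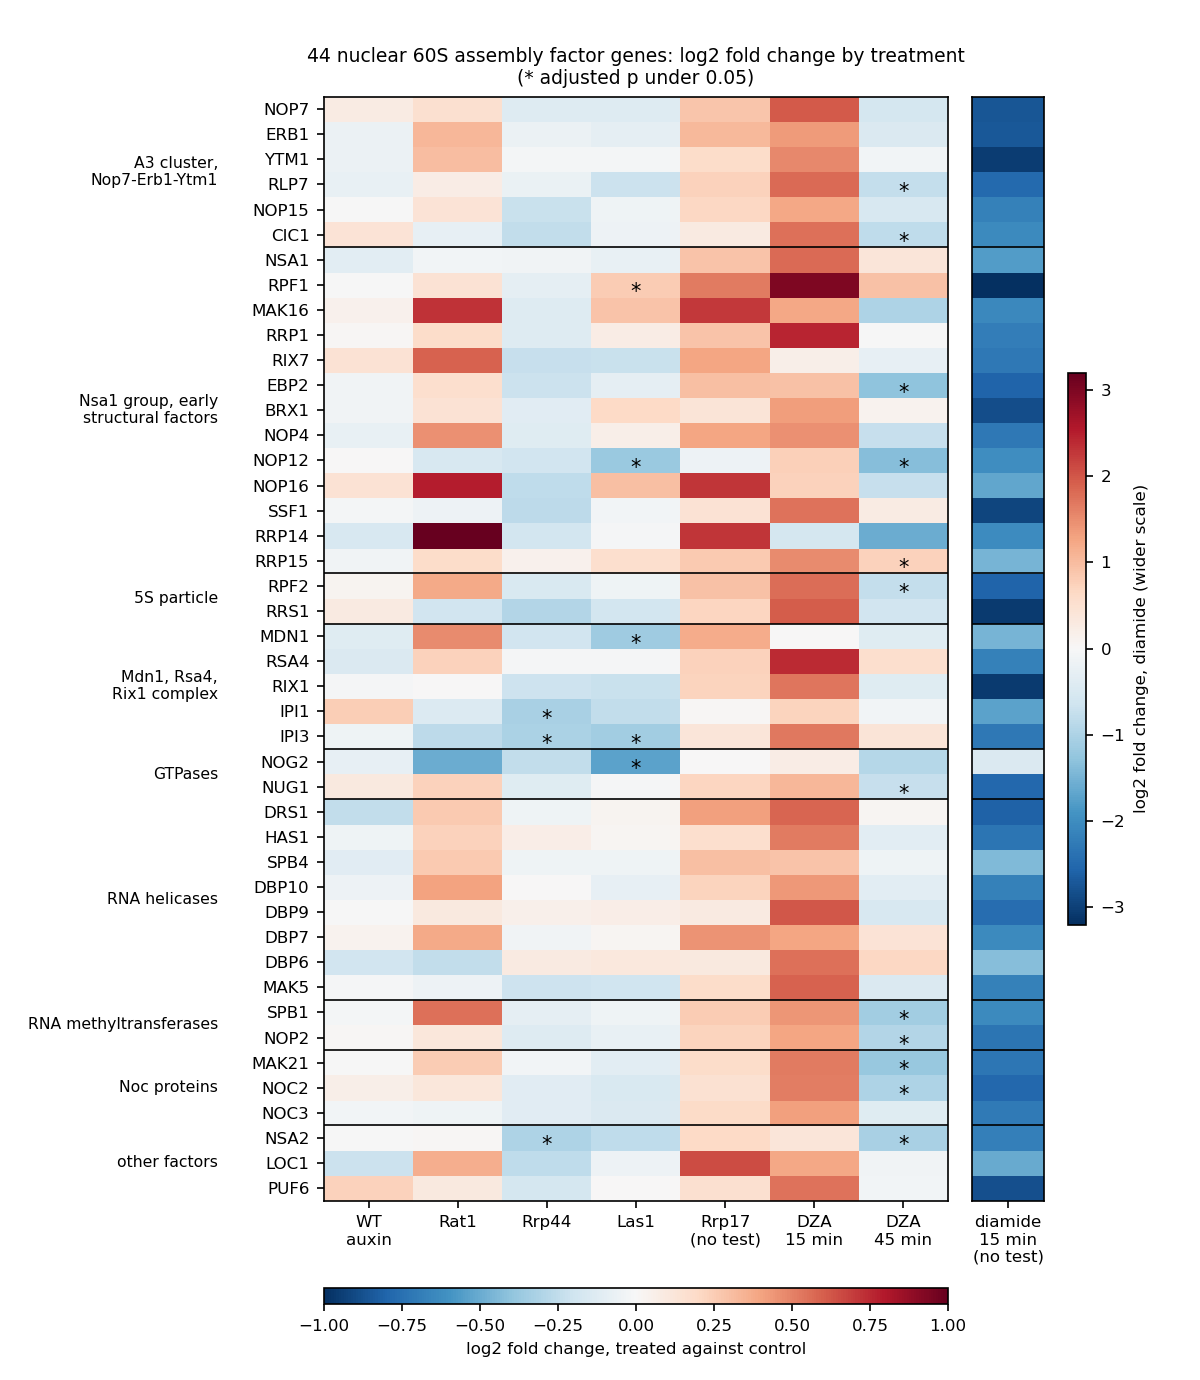
Log2 fold change of each of the 44 members (rows, by group of factors) in the 7 auxin and DZA comparisons on a scale from -1 to 1 and in diamide on a wider scale, with stars at an adjusted p under 0.05. The diamide column is blue for all members and palest for NOG2, the column of DZA at 15 min is red or near white for all but RRP14 with no star, and stars at 45 min stand on 11 falls and 1 rise.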

How the data were processed

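Members and gene lists were chosen with earlier results of these data known. Per the methods and processing notes, the authors used Cutadapt and PRINSEQ for trimming, TopHat 2.1.0 for alignment to R64 (sacCer3), and HTSeq with Ensembl features for counting. The strand setting of the counting is not given in the sources used here. For auxin and DZA the authors deposited a signal, reads divided by DESeq2 size factors, which was a whole multiple of 1 step per library for 100% of values (tolerance 0.001), so that reads were recovered. The mean, log2 fold change and p-value columns of the authors' DESeq2 fits were not used. For diamide the authors deposited RPKM, from a different library protocol. Each value was used as deposited, with no per-sample column left out.

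Each auxin or DZA table was tested alone with limma 3.58.1 in R 4.3.3 (lmFit, eBayes with trend, two-sided) on log2(value + 1), features with a mean of at least 10. This scale understates changes of low features. Differences between comparisons were fitted over 24 libraries, pooling their spread. Diamide used log2(RPKM + 0.1) and features with at least 10 mean reads. RRP17-AID, planned as a test, has 1 mock library and was described only. Adjusted p-values are Benjamini-Hochberg over all features tested. With 2 libraries per group an exact permutation test of a single value cannot reach 0.05, and none was run.

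Alternatives were other pseudocounts (0.1 and 10, or 0.01 and 1 for diamide), a minimum mean of 100 or no minimum, scaling by medians or by TMM, no trend, a replicate block, longer motif forms, edgeR 4.0.16, DESeq2 1.42.0, and each library left out. Per the labels, replicates were grown on separate days. That equal letters of control and treated libraries share a day is not stated and was assumed for the block. Deviations of same-letter libraries from their group means correlated at 0.107 (Rat1), 0.184 (Las1), 0.246 (Rrp44) and 0.449 (WT), and for DZA at -0.084 (15 min) and 0.577 (45 min). The fits were tested on simulated data. The fit over 24 libraries made more false calls than its threshold allows where the tables of a contrast were simulated with a wider spread than the rest, and the fit on 8 libraries made fewer false calls there, though still more than the threshold allows.

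Named members are those of the 6 largest rises and 6 largest falls among called members with the same sign in both pairs, the 5 largest in each direction for RRP17-AID and diamide, and 15 representatives of the roles. Others were named after their values were seen. Motif positions come from the R64 assembly in RefSeq. Figures were drawn with matplotlib 3.10.9.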

Additional observations from a re-analysis of the deposited data

Results flagged for a closer look

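The response of 11 assembly factor genes to DZA differed between 45 and 15 min in the fit over 24 libraries. The difference of log2 fold changes (45 min minus 15 min) was -0.90 for MAK21, -0.82 for NOC2, -0.81 for RLP7, -0.80 for RPF2, -0.80 for CIC1 and -0.79 for NOP7. It was -0.78 for DBP9, -0.77 for RRP1, -0.73 for MAK5, -0.67 for NOP12 and -0.66 for RIX1. With each of the 8 libraries of this contrast left out in turn, DBP9 and NOC2 were called in all 8 fits, MAK21 and RLP7 in 6, and RIX1, RRP1 and MAK5 in 1. Fitted on these 8 libraries alone, only RLP7, CIC1 and NOP12 of the 11 were called, while the limma adjusted p was 0.0764 for DBP9, 0.0656 for NOC2 and 0.101 for MAK21. Over all members the median difference was -0.57 with the low DMSO library A of 15 min and -0.33 without it.

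Members that lay above mock in both auxin libraries of RRP17-AID and below it in both pairs of another strain numbered 29 for RRP44-AID, 21 for LAS1-AID and 4 for RAT1-AID (65.9%, 47.7% and 9.09% of the members). Of all features compared, 10.8%, 8.82% and 9.79% were placed in this way. Both RRP17-AID ratios share 1 mock library, which was the lowest of the 3 libraries for 40 of 44 members. These differences between strains were not tested, since RRP17-AID has 1 mock library.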

How the results depend on the processing

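With 2 libraries a group, calls near the threshold moved with the fit, while no called member changed sign. Among values of single members under other settings, 9679 were unchanged in call or, without a test, within the spread of the auxin libraries (RRP17-AID) or the counting interval (diamide), 200 became called, 146 lost the call and 7 without a test moved further. The replicate block called 8 members for Rat1, 5 for Rrp44, 15 for Las1 and 36 for DZA at 45 min, 2 for Las1 minus Rat1, 3 for Rrp44 minus Rat1, 14 for DZA at 45 minus 15 min, and 0 for WT, DZA at 15 min and Las1 minus Rrp44, and the block changed no other count. The shares of all features called with the block are given above beside the counts of members. Without an intensity trend fewer members were called for Rrp44, Las1 and DZA at 45 min, and median-centring added a call for Rat1. DESeq2 called 2 for Rat1 (12.1% of all features higher and 9.17% lower) and 5 for DZA at 15 min (7.81% higher). The fit on only the 8 libraries of each pair of tables was chosen after seeing the data. It called 3 for DZA at 45 minus 15 min (2.03% of all features lower), and MDN1 for Las1 minus Rat1. For these 2 differences edgeR called 3 and 1 (1.86% and 1.23% of all features lower).

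Leaving out single libraries gave 0 to 3 calls for Rat1, 0 to 15 for Rrp44, 1 to 12 for Las1, 0 to 38 for DZA at 15 min, 5 to 12 for DZA at 45 min, 3 to 33 for its difference from 15 min, 0 to 1 for Las1 minus Rat1, 0 to 2 for Rrp44 minus Rat1, and 0 to 1 members past 2-fold for Rrp17. For WT and Las1 minus Rrp44 0 members were called in each such fit. Diamide has 1 library a time and none to leave out, and its count of 43 did not change with the pseudocount, centring or filter. The cause of each change was not tested. Motif forms longer by 2 bases were present for 61.4% (PAC) and 38.6% (RRPE) of members, against 3.93% and 2.95% of all promoters.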
